A study of Mus musculus with 6 samples.

Results

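Transcripts of 10 genes that mark neutrophils, S100a8, S100a9, Lcn2, Ngp, Ltf, Camp, Mmp8, Retnlg, Mpo and Elane, were followed in mouse hearts, out of 45777 genes in the table. The genes were chosen by their symbol as granule, S100 and secreted genes of neutrophils, with earlier results of these data known. The counts of Mmp8 in the libraries that received both drugs were already known when it was selected, so its values there are a description. Of the 10 genes, 7 averaged 10 or more counts per library and were tested. Ngp lay just inside that limit, with a mean of 13.3 counts, which was 9.80 without its highest library, Rh2-20 mg/kg + Dox, and Mpo lay just outside it, with 5.33. Camp had a mean of 2.50 counts and Elane a mean of 2.00. Values of Mmp8 and Ngp are therefore given below as a description, and the counts set beside all tested genes are over the other 5 tested members, S100a8, S100a9, Lcn2, Ltf and Retnlg.

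The hearts came from female BALB/c nude mice (CAnN.Cg-Foxn1nu/Crl), which carry the Foxn1nu allele and so lack a thymus and most T cells but keep neutrophils. The stated age of 6 weeks is that of the mice before the 3 weeks of treatment. The mice of all 6 groups bore subcutaneous tumours of MDA-MB-231, a human breast cancer line. The 6 groups were Control, Dox, either Rh2 dose alone (Rh2-20 mg/kg or, higher, Rh2-30 mg/kg) and each of these doses combined with Dox (Rh2-20 mg/kg + Dox or, higher, Rh2-30 mg/kg + Dox). Dox, the anthracycline doxorubicin, was given at 2 mg/kg every other day up to a cumulative 22 mg/kg, and Rh2, a ginsenoside, was given daily in PBS with Tween 80, over 3 weeks. Each group is 1 library made from the pooled hearts of 5 mice, so the differences between 2 conditions have no replicate check, and the spread between mice cannot be seen.

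Neutrophils are short-lived granulocytes that leave the bone marrow filled with granules made in a fixed order. Primary granules, which hold myeloperoxidase and elastase, are made by promyelocytes, secondary and tertiary granules, which hold lactoferrin, cathelicidin and gelatinases, are made later, and their messages largely fade in mature cells. S100a8 and S100a9 form calprotectin, a calcium and zinc binding dimer that fills the cytosol of mature neutrophils and is released as an alarm signal. In the heart, neutrophils are known as early arrivals after injury.

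The stretches of 250 bases before the annotated start site are printed for the S100 pair, for Lcn2 and Mmp8, which shared the highest library with the pair, and for Ltf, which did not. They are given 5′ to 3′ on the strand of the gene, from RefSeq on the build GRCm38.p6, and capitals mark a match to the C/EBP letters TTGCNNAA or their reverse complement.
S100a8: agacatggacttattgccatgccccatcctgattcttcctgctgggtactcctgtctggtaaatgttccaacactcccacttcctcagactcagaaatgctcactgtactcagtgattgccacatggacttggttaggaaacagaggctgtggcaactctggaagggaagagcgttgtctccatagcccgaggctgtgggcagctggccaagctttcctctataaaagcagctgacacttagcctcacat
S100a9: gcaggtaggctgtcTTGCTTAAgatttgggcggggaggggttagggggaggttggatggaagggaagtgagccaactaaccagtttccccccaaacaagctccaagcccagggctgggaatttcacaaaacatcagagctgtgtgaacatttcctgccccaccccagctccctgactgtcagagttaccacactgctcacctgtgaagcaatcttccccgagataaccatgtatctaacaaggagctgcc
Lcn2: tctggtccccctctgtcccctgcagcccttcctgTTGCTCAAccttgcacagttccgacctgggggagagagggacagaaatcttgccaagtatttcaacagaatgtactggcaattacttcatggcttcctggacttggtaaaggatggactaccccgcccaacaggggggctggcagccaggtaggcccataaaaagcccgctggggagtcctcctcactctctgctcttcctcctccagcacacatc
Mmp8: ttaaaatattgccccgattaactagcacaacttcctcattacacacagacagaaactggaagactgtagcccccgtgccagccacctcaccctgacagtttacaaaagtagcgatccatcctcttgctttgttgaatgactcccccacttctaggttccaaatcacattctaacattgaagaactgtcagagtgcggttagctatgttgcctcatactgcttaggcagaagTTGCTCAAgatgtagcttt
Ltf: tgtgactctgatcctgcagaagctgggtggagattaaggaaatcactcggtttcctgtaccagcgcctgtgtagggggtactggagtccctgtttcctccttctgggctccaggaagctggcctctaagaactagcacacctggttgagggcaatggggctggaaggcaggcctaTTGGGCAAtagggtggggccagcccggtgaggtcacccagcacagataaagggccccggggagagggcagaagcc
These stretches lie at chr3:90668821-90669070 (plus strand) for S100a8, chr3:90695722-90695971 (minus strand) for S100a9, chr2:32387740-32387989 (minus strand) for Lcn2, chr9:7558179-7558428 (plus strand) for Mmp8 and chr9:111019042-111019291 (plus strand) for Ltf.

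C/EBP factors, PU.1 and Runx1 are the transcription factors best known for switching on granule genes. Within 300 bases (250 before to 50 after the start site), the letters TTGCNNAA stood on either strand in 6 of the 10 genes (Lcn2, S100a9, Mmp8, Ngp, Ltf and Retnlg) against 10.8% of 32851 RefSeq promoters. The PU.1 letters GAGGAA or their reverse complement stood in 6 of the 10 (Lcn2, S100a8, Mmp8, Ltf, Elane and Mpo) against 28.3%, and the Runx letters TGTGGT in 2 of the 10 (S100a9 and Ltf) against 16.8%. No match of one motif overlapped a match of another in these 10 windows. The C/EBP match of Mmp8 began 19 bases before the start site, that of Ltf 75 bases before it, and those of Lcn2 and S100a9 lay farther upstream, 216 and 236 bases before it. Ngp held 2 such matches, at 138 and 11 bases before its start. A match describes the letters only, and no binding was measured.

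S100a8 (chr3:90669071-90670034) and S100a9 (chr3:90692630-90695721) are neighbours, 22595 bp apart with 0 annotated genes between them. Camp, Ngp and Ltf lie in that order on chromosome 9, from chr9:109847377-109849456 through chr9:110419808-110423012 to chr9:111019292-111042766, with 18 genes between the first pair and 25 between the next. Mmp8 lies on the same chromosome at chr9:7558429-7568486, while Lcn2 (chr2:32384637-32387739), Mpo (chr11:87793784-87804412), Elane (chr10:79886312-79888216) and Retnlg (chr16:48872608-48874498) stand alone. Mmp8 and Mpo each overlap 1 predicted gene (Gm31751 and Gm34064), and both predicted genes had 0 counts in every library.

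The libraries held 86164411 to 90621002 gene counts each, and all 8 cardiomyocyte markers looked at (Myh6, Tnnt2, Tnni3, Actc1, Ryr2, Myl2, Myl3 and Pln) were counted in every library, with a summed level of 19939 to 27709 CPM (counts scaled by library size and TMM factor). The 10 neutrophil genes were rare beside them. Their summed level was 6.22 CPM in Control and 7.17 in Dox. Under Rh2-20 mg/kg it was 13.6 without and 25.5 with Dox, and under Rh2-30 mg/kg it was 9.89 without and 13.3 with Dox. The library that received the lower Rh2 dose and Dox thus had 4.11 times the level of Control, or 3.84 times with Mmp8 left out. In these bulk hearts, more neutrophils, more RNA per neutrophil and RNA of these genes from other cells cannot be told apart. Intervals given below for counts cover counting error only.

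**Figure D1:**
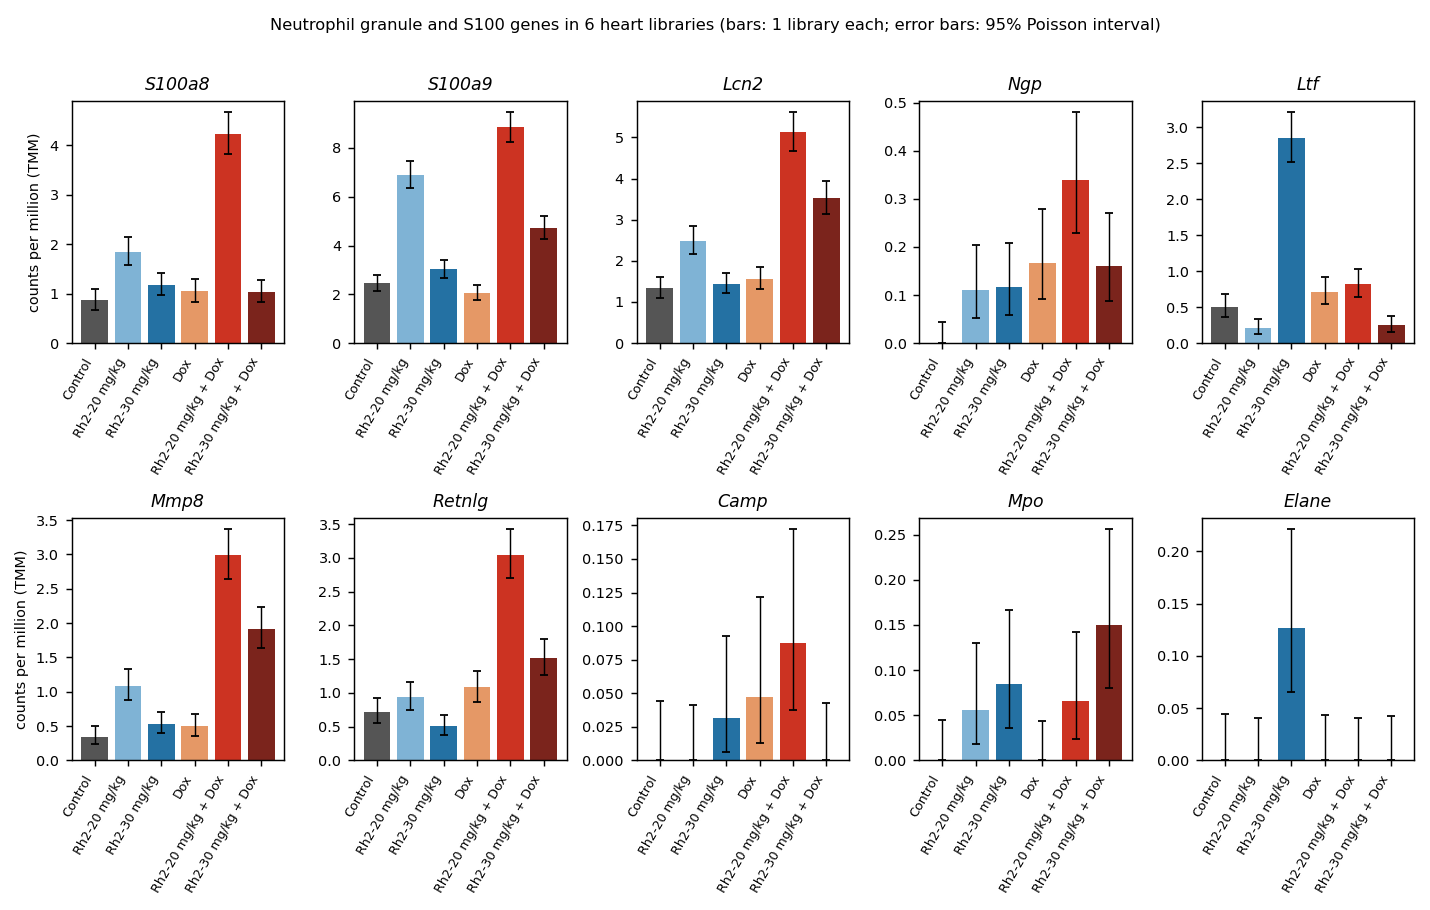
Level of each of the 10 genes (CPM, y axis from 0) in each of the 6 libraries (x axis), with 95% Poisson intervals for counting error as error bars and 1 library a bar. The bar of Rh2-20 mg/kg + Dox is the highest for S100a8, S100a9, Lcn2, Ngp, Mmp8, Retnlg and Camp, whereas Ltf and Elane are highest in Rh2-30 mg/kg and Mpo in Rh2-30 mg/kg + Dox.

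Compared per length, as FPKM (fragments scaled by transcript length and library size), S100a9 was the most abundant of the 10 in all 6 libraries, at 2.93 in Dox up to 13.1 in Rh2-20 mg/kg + Dox. S100a8 came next in 5 libraries, at 1.62 to 8.40 FPKM over the 6, and Lcn2, at 1.16 to 4.68 FPKM, passed it in Rh2-30 mg/kg + Dox, with 3.04 against 1.94. Retnlg followed at 0.673 to 3.90 FPKM. The other genes lay below 1 FPKM throughout: Mmp8 reached 0.948, Ltf 0.849 and Ngp 0.223 FPKM in their highest library. Mpo, Elane and Camp did not pass 0.113 FPKM in any library. The kit used selects transcripts with probes that are not given here, and how far capture weighs on these ranks between genes was not tested.

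S100a9 had 204 counts in Control and 173 in Dox. Under Rh2-20 mg/kg it had 622 without and 810 with Dox, and under Rh2-30 mg/kg 287 without and 411 with Dox. The order of its levels was led by both libraries with the lower Rh2 dose, and Control and Dox stood lowest, with 95% intervals that overlapped (177 to 234 and 148 to 201 counts). S100a8 had 72 counts in Control, 88 in Dox, 166 and 387 under Rh2-20 mg/kg without and with Dox, and 111 and 90 under the higher dose in the same order. It also was highest in both libraries with the lower Rh2 dose, but Rh2-30 mg/kg + Dox, next after them for S100a9, stood for S100a8 beside Dox and Control, with overlapping intervals (72.4 to 111, 70.6 to 108 and 56.3 to 90.7 counts).

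The pair did not keep one ratio. S100a8 made up 26.1% of the counts of both genes in Control (exact Clopper-Pearson 95% interval 21.0 to 31.7%) and 33.7% in Dox (28.0 to 39.8%). Under Rh2-20 mg/kg it made up 21.1% without Dox (18.3 to 24.1%) and 32.3% with it (29.7 to 35.1%), and under Rh2-30 mg/kg 27.9% without (23.5 to 32.6%) and 18.0% with Dox (14.7 to 21.6%). Rh2-30 mg/kg + Dox was lowest, and its interval overlapped those of the lower dose alone and, slightly, of Control. Dox, alone or with the lower Rh2 dose, stood above the lower dose alone and above Rh2-30 mg/kg + Dox by more than their counting intervals. Whether mice of 1 group vary as much in this share was not tested, since a group is 1 library.

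**Figure D2:**
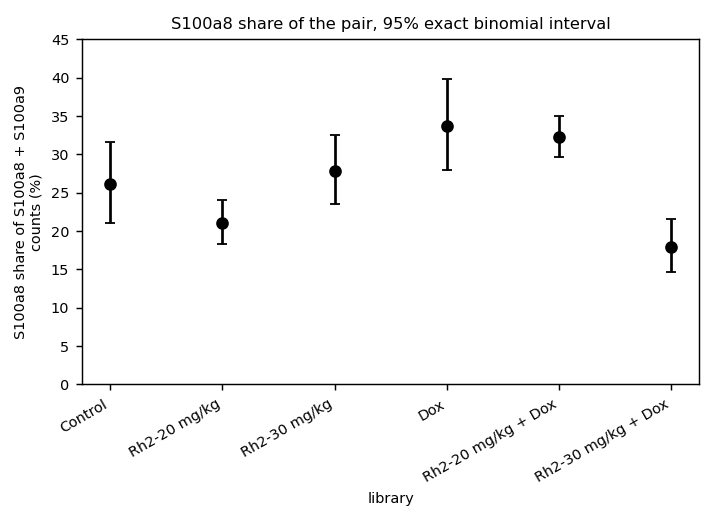
Share of S100a8 in the counts of S100a8 and S100a9 (%, y axis) in each library (x axis), with exact binomial 95% intervals that cover counting error only. The share ran from 18.0% in Rh2-30 mg/kg + Dox to 33.7% in Dox.

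Lcn2, lipocalin that binds bacterial siderophores and is stored in secondary granules, had 111 counts in Control and 131 in Dox. Under Rh2-20 mg/kg it had 224 without and 470 with Dox, and under Rh2-30 mg/kg 137 without and 306 with Dox. Both libraries that received the 2 drugs stood above all others, and Control, Dox and Rh2-30 mg/kg did not differ beyond counting error. Mmp8, the neutrophil collagenase, had 29 counts in Control, 42 in Dox, 98 and 274 under the lower Rh2 dose without and with Dox, and 51 and 167 under the higher dose. Retnlg, a resistin-like secreted protein of the neutrophil lineage, had 60 in Control, 91 in Dox, 85 and 279 under the lower dose, and 48 and 132 under the higher dose, so that Dox lay slightly above the lower dose alone. Each of these 3 genes was thus highest in Rh2-20 mg/kg + Dox and second in Rh2-30 mg/kg + Dox.

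Ngp, the neutrophilic granule protein of secondary granules, had 0 counts in Control and 14 in Dox, 10 and 31 under Rh2-20 mg/kg without and with Dox, and 11 and 14 under Rh2-30 mg/kg. Its count of 0 in Control allows up to 3 counts at this depth, and the 4 middle libraries lay within one another's intervals. Camp, the cathelicidin of the same granules, had 0 counts in Control, 4 in Dox, 0 and 8 under the lower Rh2 dose and 3 and 0 under the higher. A difference from Control beyond counting error was seen only in Rh2-20 mg/kg + Dox, with a log2 counting interval from 0.63 upwards. With the common dispersion described below added, the interval held 0 (-0.33 to 8.23). With the 0 of Control taken as 3 counts the fold was 2.42, a bound that leaves out the counting error of the 8. Ltf, lactoferrin, an iron-binding protein of secondary granules that glandular epithelia also secrete, had 42 counts in Control, 60 in Dox, 19 and 75 under the lower Rh2 dose without and with Dox, and 270 and 22 under the higher. It departed from the other tested genes: its highest library was Rh2-30 mg/kg, 3.48 times the next, and the lower dose alone and Rh2-30 mg/kg + Dox were its lowest.

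The primary granule genes were at the edge of detection. Mpo, myeloperoxidase, had 0 counts in Control and Dox, 5 and 6 under Rh2-20 mg/kg without and with Dox, and 8 and 13 under Rh2-30 mg/kg. Elane, neutrophil elastase, was counted in Rh2-30 mg/kg only, with 12 counts. That is at least 3.51-fold above Control when the 0 there is taken as 3 counts, a bound that leaves out the counting error of the 12. Of 10 further genes of primary granules and precursors, Ctsg, Ms4a3, Fcnb and Bpi had 0 counts in all 6 libraries, and Chil3, a chitinase-like lectin, was the only one that reached a mean of 10 counts (37 counts in Control, 74 in Dox, 112 for Rh2-20 mg/kg + Dox).

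Against Control, the highest folds of the members were in Rh2-20 mg/kg + Dox. There 4 of the 5 (S100a8, S100a9, Lcn2 and Retnlg) were at least 2-fold higher, where 5.11% of the 18328 tested genes were, and 10.3% of the 6633 genes in the members' range of mean counts (13.3 to 418). The lower end of that range is the mean of Ngp, while the lowest mean of the 5 was 81.3, of Ltf. The range thus also holds genes with fewer counts than any of the 5. S100a8 was 4.86-fold higher (log2 2.28, 95% counting interval 1.92 to 2.67), S100a9 3.60-fold (log2 1.85, 1.63 to 2.08) and Lcn2 3.84-fold (log2 1.94, 1.64 to 2.26). Retnlg was 4.20-fold higher, and Ltf, at 1.61-fold, was the exception. Mmp8 stood at 8.46-fold, and Ngp, with 31 counts against 0, at least 9.39-fold above Control when the 0 is taken as 3 counts, a bound that leaves out the counting error of the 31. When the common dispersion of the 6 libraries (0.0865, a coefficient of variation of 0.294) was added to the counting error, the log2 intervals widened to 1.05 to 3.51 for S100a8, 0.65 to 3.05 for S100a9 and 0.73 to 3.15 for Lcn2. The median log2 fold of the 5 was 1.94, and that of all tested genes 0.01.

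In Rh2-30 mg/kg + Dox, 2 of the 5 (Lcn2 and Retnlg) were at least 2-fold above Control, where 4.06% of all tested genes were, and 8.02% of those in the members' range. Lcn2 was 2.64-fold (log2 1.40, 1.08 to 1.73), Retnlg 1.07 on the log2 scale higher, S100a9 stood at 1.93-fold, S100a8 at 1.20-fold and Mmp8 at 5.44-fold. In Rh2-20 mg/kg, 2 of 5 (S100a8 and S100a9) were at least 2-fold higher against 3.31% of all tested genes and 6.95% in the members' range, and 1 of 5, Ltf, was at least 2-fold lower against 2.8% and 6.21%. S100a9 was 2.82-fold (log2 1.49, 1.27 to 1.73), and S100a8 2.12-fold above Control. Lcn2 stood at 1.86-fold and Mmp8 at 3.09-fold there. With the common dispersion added, the log2 intervals of Lcn2 in Rh2-30 mg/kg + Dox (0.18 to 2.61) and of S100a9 in Rh2-20 mg/kg (0.30 to 2.69) lay above 0. Those of Retnlg in Rh2-30 mg/kg + Dox (-0.19 to 2.33) and of S100a8 (-0.15 to 2.33) and Ltf (-2.64 to 0.17) in Rh2-20 mg/kg held 0.

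The counts for the higher Rh2 dose alone and for Dox alone were nearer to the background. In Rh2-30 mg/kg, 1 of 5 (Ltf) was at least 2-fold above Control, where 8.46% of all tested genes were, and 17.1% of those in the members' range. Ltf was 5.59-fold higher there (log2 2.48, 2.02 to 3.00) and Mmp8 stood at 1.53-fold, while S100a8, S100a9, Lcn2 and Retnlg lay between 0.704-fold and 1.35-fold. In Dox, 0 of 5 were at least 2-fold above Control, where 5.43% of all tested genes were, and 10.9% of those in the members' range. S100a8 stood at 1.21-fold, S100a9 at 0.841-fold, Lcn2 at 1.17-fold and Ltf at 1.41-fold. The counting interval of each of these held 0 on the log2 scale. That of Retnlg (log2 0.58, 0.10 to 1.08) lay above 0, and with the common dispersion added it held 0 (-0.68 to 1.85). Mmp8 stood at 1.43-fold, with a counting interval that held 0. Ngp had 14 counts against 0, at least 4.63-fold above Control when the 0 is taken as 3 counts, a bound that leaves out the counting error of the 14.

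**Figure D3:**
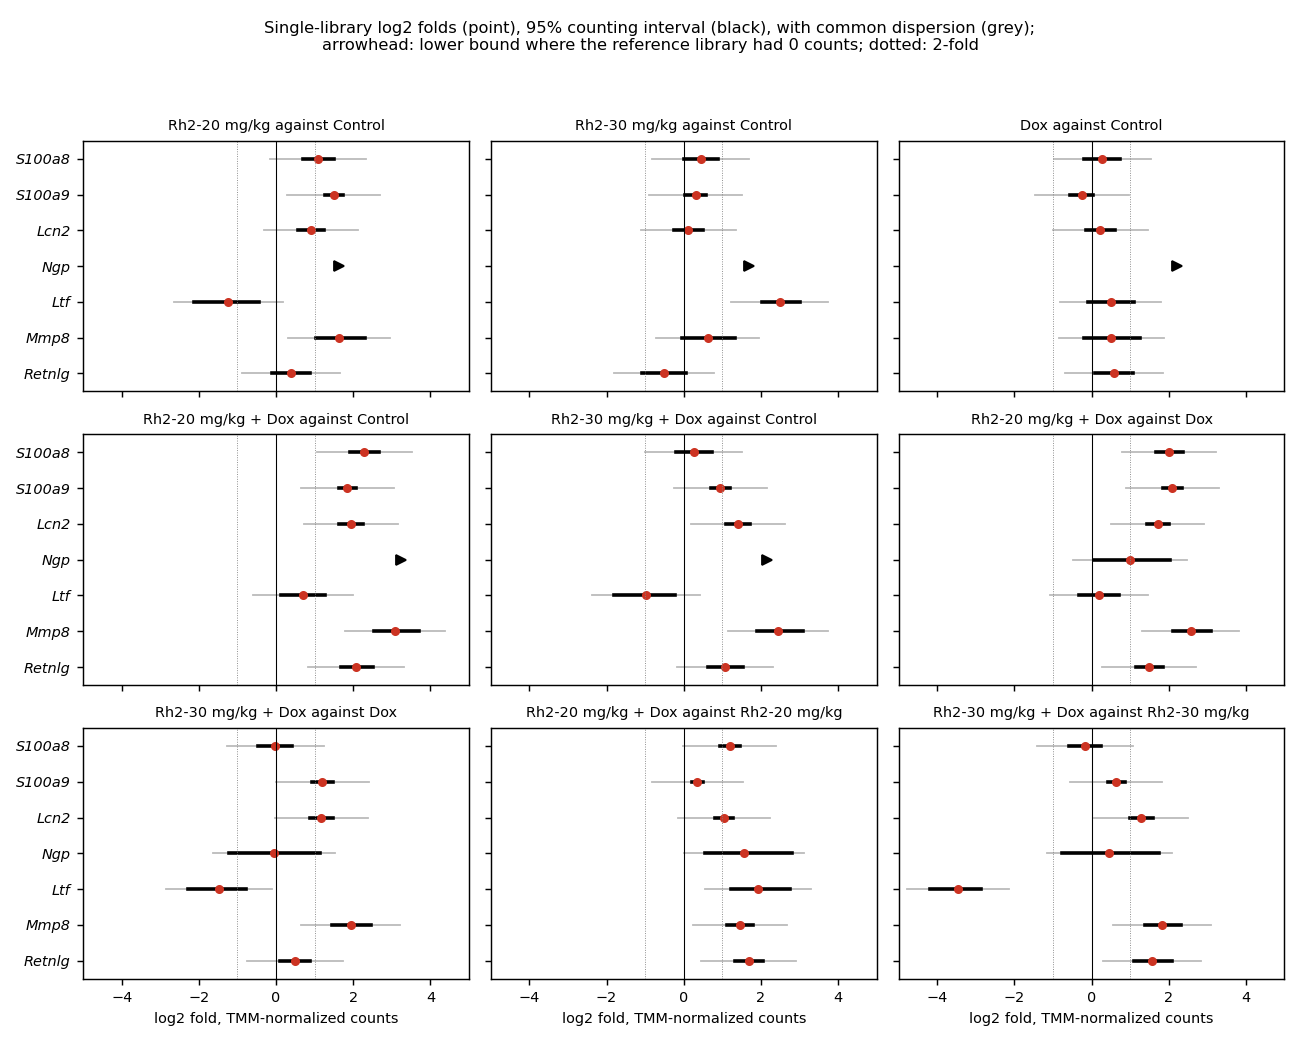
Log2 folds of the 7 tested genes (y axis) in 9 comparisons of 2 libraries (panels); points are the folds of TMM-scaled counts (x axis, log2), black lines the 95% counting intervals, grey lines intervals that add the common dispersion, and arrowheads lower bounds for Ngp, which had 0 counts in Control. All 7 points lie above 0 in the 3 panels of Rh2-20 mg/kg + Dox, and Ltf lies below 0 in the 3 panels of Rh2-30 mg/kg + Dox.

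With Dox as the reference, Rh2-20 mg/kg + Dox had 4 of the 5 genes at least 2-fold higher, where 3.05% of all tested genes were, and 6.54% of those in the members' range. S100a9 was 4.28-fold (log2 interval 1.86 to 2.35), S100a8 4.02-fold (log2 2.01, 1.67 to 2.36), Lcn2 3.28-fold and Retnlg 2.80-fold higher, and Mmp8 stood at 5.92-fold. Ngp was at 1.99-fold and Ltf at 1.14-fold. For Rh2-30 mg/kg + Dox, 2 of 5 (S100a9 and Lcn2) were at least 2-fold above Dox against 2.74% of all tested genes and 5.71% in the members' range, and 1 of 5, Ltf at 0.360-fold, was at least 2-fold lower against 7.35% and 14.4%, a count near the background. S100a9 was 2.29-fold and Lcn2 2.25-fold higher, while S100a8 stayed at 0.989-fold (log2 -0.02, -0.46 to 0.42). With the common dispersion added, the log2 intervals of S100a9 (-0.01 to 2.40) and Lcn2 (-0.04 to 2.385) in Rh2-30 mg/kg + Dox held 0. That of Ltf (-2.84 to -0.11) lay below 0, and those of the 4 genes higher in Rh2-20 mg/kg + Dox lay above 0. These comparisons share the Dox library, and those of the preceding paragraphs share Control, so they are not separate evidence.

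Each combination was also set against Rh2 alone at the same dose. Rh2-20 mg/kg + Dox had 4 of 5 genes at least 2-fold above Rh2-20 mg/kg, where 4.09% of all tested genes were, and 8.43% of those in the members' range, with Retnlg at 3.21-fold, Ltf at 3.80-fold, S100a8 at 2.29-fold and Lcn2 at 2.06-fold. S100a9, which was already high under Rh2-20 mg/kg, stood at 1.28-fold (log2 0.36, 0.20 to 0.51). Rh2-30 mg/kg + Dox had 2 of 5 (Lcn2 and Retnlg) at least 2-fold above Rh2-30 mg/kg against 2.4% of all tested genes and 4.45% in the members' range. Ltf, 1 of 5, was at least 2-fold lower against 12.1% and 23.7%, which is again near the background. Lcn2 was 2.43-fold and Retnlg 2.98-fold higher, and Ltf stood at 0.0908-fold (log2 -3.46, -4.19 to -2.86). With the common dispersion added, the log2 intervals of S100a8 (-0.01 to 2.40) and Lcn2 (-0.16 to 2.24) in Rh2-20 mg/kg + Dox held 0, and those of Retnlg and Ltf there did not. In Rh2-30 mg/kg + Dox, those of Lcn2 (0.07 to 2.49), Retnlg (0.31 to 2.84) and Ltf (-4.79 to -2.13) did not hold 0.

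A comparison of both combinations with each other was added after the values were seen. Rh2-20 mg/kg + Dox had 3 of 5 genes (S100a8, Ltf and Retnlg) at least 2-fold above Rh2-30 mg/kg + Dox, where 6.24% of all tested genes were, and 12.7% of those in the members' range. S100a8 differed most, at 4.06-fold (log2 2.02, 1.69 to 2.38), S100a9 stood at 1.87-fold, Lcn2 at 1.46-fold, Mmp8 at 1.55-fold and Retnlg, on the limit, at 2.00-fold. With the common dispersion added, the log2 interval of Retnlg (-0.21 to 2.21) held 0, and those of S100a8 (0.80 to 3.24) and Ltf (0.31 to 3.03) did not.

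The 6 libraries were also fitted together, with the libraries of a dose or drug taken as replicates. For Dox (3 libraries against 3), edgeR's quasi-likelihood test called 5 of 18328 genes at an adjusted p under 0.05 (0.0273%) and 0 of the 7 members; 1852 genes had an unadjusted p under 0.05, and DESeq2's Wald test called 425 genes and 0 members. At an unadjusted p under 0.05, 1 of 5 members was higher, against 4.2% of all tested genes. That member was Retnlg, with a log2 fold of 1.38 (edgeR, adjusted p = 0.377). Retnlg, Lcn2, Mmp8 and Ngp were each higher with Dox in 3 of 3 pairs of matched Rh2 dose, and S100a8, S100a9 and Ltf in 2 of 3. With Rh2 dose as a term, Retnlg, Lcn2 and, as a description, Mmp8 had an unadjusted p under 0.05, against 8.72% of all tested genes in either direction, and log2 folds of 1.29, 0.86 and 1.29 (edgeR, adjusted p = 0.516, 0.539 and 0.519). In the fit without that term, S100a8 had a log2 fold of 0.70 and S100a9 of 0.34 (edgeR, adjusted p = 0.745 and 0.886).

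For Rh2-20 mg/kg (2 libraries against the 2 without Rh2, Dox as a term), edgeR called 0 genes, 0% of those tested, at an adjusted p under 0.05, and therefore 0 of 7 members; 576 genes had an unadjusted p under 0.05, and DESeq2's Wald test called 24 genes, of which 1, S100a9, was a member. At an unadjusted p under 0.05, 3 of 5 members were higher, against 1.43% of all tested genes. These were S100a9, with a log2 fold of 1.78, S100a8, with 1.60, and Lcn2, with 1.28 (edgeR, adjusted p = 1 for each), and Mmp8, given as a description, had 2.09. All 4 were higher than the library without Rh2 in 2 of 2 pairs, without and with Dox. The fit that picked them out used the same pairs, so this is not separate evidence. The adjusted p of S100a9 ran from 0.00121 to 1 over the alternatives.

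For Rh2-30 mg/kg in the same model, edgeR called 0 genes, again 0%, and 0 of 7 members; 1337 genes had an unadjusted p under 0.05, and DESeq2's Wald test called 91 genes and 0 members. At an unadjusted p under 0.05, 1 of 5 members (S100a9) was higher, against 3.33% of all tested genes. S100a9 had a log2 fold of 0.75 (edgeR, adjusted p = 0.682), S100a8 of 0.24 and Lcn2 of 0.63. The model treats the Rh2 effect as equal with and without Dox, which 1 library a condition cannot check.

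Other genes of mature neutrophils were read from lists. Of 21 genes of the neutrophil surface and its signalling, 18 were tested, and 10 of them were at least 2-fold above Control in Rh2-20 mg/kg + Dox and 0 lower, with a median log2 fold of 1.08. Of all tested genes, 5.11% were at least 2-fold higher in that library. Among the 10 was Trem1, with 0 counts in Control, Rh2-30 mg/kg and Dox. It reached the limit for testing only through its other libraries, with 15, 20 and 25 counts. Mrgpra2a and Mrgpra2b, with 66 and 89 counts in Rh2-20 mg/kg + Dox, are counted separately, and reads shared between them were not checked. Csf3r, the receptor of the growth factor G-CSF, had 888 counts in Control and 948 in Dox, 1557 and 2122 under Rh2-20 mg/kg without and with Dox, and 1044 and 1369 under Rh2-30 mg/kg. Cxcr2, the receptor for the chemokines that draw neutrophils into tissue, had 81 in Control, 179 in Dox, 230 and 422 under the lower dose, and 84 and 223 under the higher. Both receptors had the same highest library as S100a8 and S100a9. Ly6g, the surface antigen that defines mouse neutrophils, had 0 counts in Control and Dox, 5 and 16 under the lower dose, and 14 and 7 under the higher. The genes of this list with the highest counts beside Csf3r were Fcgr3, Hdc and G0s2, which other cells also express, and they lay between 0.849-fold and 1.52-fold of Control in that library.

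In Rh2-30 mg/kg + Dox, 7 of the 18 surface genes were at least 2-fold above Control and 1 lower (median log2 fold 0.39). The counts were 5 and 0 for Rh2-20 mg/kg (median 0.39), 4 and 0 for the higher dose alone (0.30), and 4 and 1 for Dox (0.18). In these 4 libraries, in that order, 4.06%, 3.31%, 8.46% and 5.43% of all tested genes were at least 2-fold higher, and 8.02%, 6.95%, 17.1% and 10.9% of those in the members' range, so that the count for the higher dose alone was near the background. Some surface genes, such as Csf3r, had counts above that range. Trem1 is among the 7 of Rh2-30 mg/kg + Dox and the 5 of Rh2-20 mg/kg. Mrgpra2a and Mrgpra2b are among the higher genes in each of these libraries. Among the stefin A and cytosolic genes, 3 of 6 tested were at least 2-fold above Control in Rh2-20 mg/kg + Dox. Stfa2l1, a protease inhibitor of neutrophils, had 13 counts in Control, 21 in Dox, 52 and 207 under the lower Rh2 dose without and with Dox, and 45 and 105 under the higher. Stfa2 had 0 in Control and Dox, 20 and 76 under the lower dose, and 3 and 67 under the higher, although these near-identical genes can share reads. Anxa1 and Gca, the most abundant of that list, stood at 1.32-fold and 0.878-fold. Of 13 tested genes of secondary and tertiary granules other than the members, 5 were at least 2-fold above Control in Rh2-20 mg/kg + Dox and 0 lower (median log2 fold 0.83), but Lyz2, Cybb and Cyba, abundant genes of that list that macrophages share, lay between 1.02-fold and 1.29-fold. The counts were 6 and 0 in Rh2-20 mg/kg (median 0.86), 4 and 0 in Rh2-30 mg/kg (0.51), 4 and 1 in Dox (0.17) and 2 and 1 in Rh2-30 mg/kg + Dox (-0.12).

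**Figure D4:**
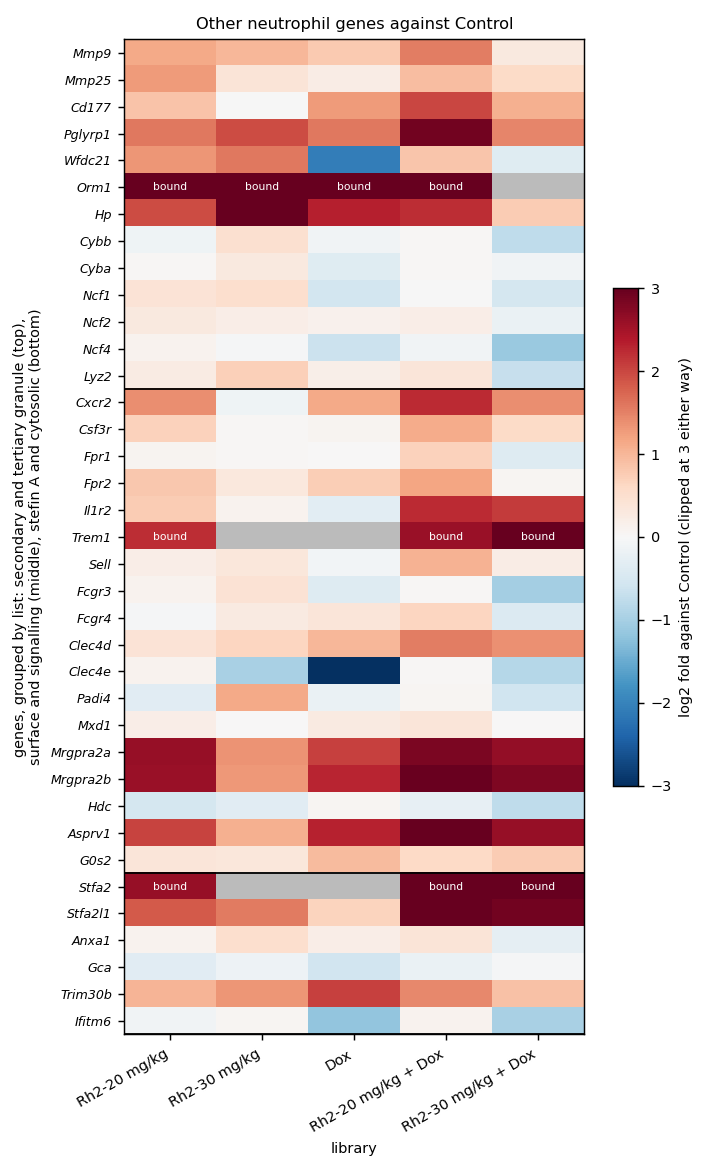
Log2 folds against Control (colour, clipped at 3 either way) of tested genes of 3 neutrophil lists (rows) in the 5 treated libraries (columns); cells marked as bound had 0 counts in Control, and grey cells had at most 3 counts in both. In Rh2-20 mg/kg + Dox some genes with low counts, such as Stfa2l1, Cxcr2 and Pglyrp1, are red. Others with low counts, Padi4 (log2 0.06), Clec4e (0.04) and Ifitm6 (0.11), are pale, as are the more abundant Lyz2, Cybb and Hdc.

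Of 10 tested S100 genes outside the pair, 0 were 2-fold higher or lower than Control in Rh2-20 mg/kg + Dox, with a median log2 fold of 0.27. S100a1, the S100 protein of cardiomyocytes, had 12188 counts in its lowest library, Rh2-30 mg/kg, and 16980 in its highest, that dose with Dox. S100a6, S100a10 and S100a11 were highest in Rh2-30 mg/kg and had 1313, 1454 and 4499 counts in Control and 2557, 2856 and 7928 in Rh2-30 mg/kg. Of 6 tested genes for neutrophil chemoattractants and growth factors, 0 were 2-fold above Control and 3 were at least 2-fold lower in Rh2-20 mg/kg + Dox. In that library, 10.3% of the genes in the members' range were at least 2-fold higher and 7.51% at least 2-fold lower. Cxcl1, a ligand of Cxcr2, had 446 counts in Control, 162 in Dox, 392 and 242 under the lower Rh2 dose without and with Dox, and 286 and 116 under the higher, lower in all 5 treated libraries, and Csf3, Csf2 and Il17a had 0 counts in every library.

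Markers of other cells also differed between these libraries, and their part in the results above was not tested. The 10 platelet genes, all counted in every library, summed to 20.6 CPM in Control and 133 in Dox, to 18.5 and 195 under Rh2-20 mg/kg without and with Dox, and to 39.0 and 17.6 under Rh2-30 mg/kg. All 10 were at least 2-fold above Control in Dox and in the lower dose with Dox, where Ppbp had 1759 and 3571 counts, against 296 in Control. Of all tested genes, 5.43% and 5.11% were at least 2-fold higher in these libraries, and 10.9% and 10.3% of those in the members' range. Red cell genes (9 of 10 listed genes in the table) summed to 1672 to 10680 CPM and were highest in Dox, with Hbb-bs at 237261 counts. The platelet sum was thus highest in Rh2-20 mg/kg + Dox, the highest library of most members, and next in Dox, and both sums were lowest in Rh2-30 mg/kg + Dox.

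Of the 15 monocyte and macrophage genes, all were counted in every library, and 2 were at least 2-fold above and 1 below Control in Rh2-20 mg/kg + Dox (median log2 fold 0.34). In the members' range, 10.3% of genes were at least 2-fold higher there and 7.51% lower, so these counts were near the background. The sum of the 15 ran from 347 CPM in Rh2-30 mg/kg + Dox to 605 in Rh2-30 mg/kg. Ccr2, the monocyte chemokine receptor, went from 641 counts in Control to 1006 with the lower dose and Dox. Of 13 eosinophil and mast cell genes, Epx, Prg3, Ear1 and Ear6 had 0 counts in every library. The list summed to 11.9 to 36.2 CPM, lowest in Dox. The 10 T and NK cell genes summed to 1.52 to 4.74 CPM, highest in Dox, and the 6 cell cycle genes to 10.6 to 182 CPM, lowest in Rh2-30 mg/kg + Dox.

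The library with the most Ltf stood out in other lists. In Rh2-30 mg/kg, all 6 B cell genes were at least 2-fold above Control and summed to 36.7 CPM, against 7.43 to 14.9 in the other libraries. Of all tested genes, 8.46% were at least 2-fold higher in Rh2-30 mg/kg, and 17.1% of those in the members' range. The 10 epithelial and lung genes summed to 22.5 CPM there against 6.85 to 11.4 elsewhere. Scgb1a1, the secretoglobin of airway club cells, had 77 counts in Control and 98 in Dox, 9 and 51 under Rh2-20 mg/kg without and with Dox, and 730 and 16 under Rh2-30 mg/kg, the same highest and lowest libraries that Ltf showed, while Sftpc, of alveolar type II cells, had 0 in every library. The 11 acute phase genes, made mostly in liver, summed to 801 CPM there and to 240 to 553 elsewhere. Whether Ltf came from neutrophils in that library was not tested.

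**Figure D5:**
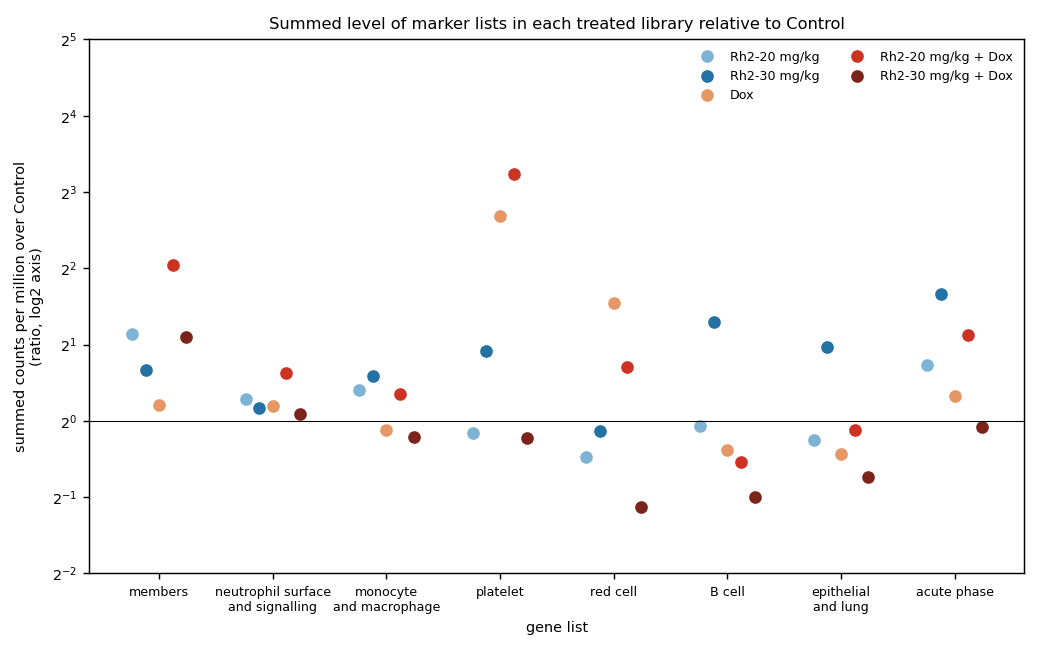
Summed CPM of 8 gene lists (x axis) in each treated library, as a ratio to Control (y axis, log2 scale; coloured points, 1 library each). The 10 members are highest in Rh2-20 mg/kg + Dox (4.11), the platelet list is high in Dox and in the lower Rh2 dose with Dox, and the B cell and epithelial lists are highest in Rh2-30 mg/kg.

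The mean profile of the 7 tested members over the 6 libraries, each gene centred on its own mean log2 level, was -1.21 in Control and -0.25 in Dox, 0.01 and 1.33 under Rh2-20 mg/kg without and with Dox, and -0.09 and 0.21 under Rh2-30 mg/kg. It includes Mmp8 and Ngp, and so is a description. The 0 counts of Ngp in Control, entered with a prior count of 0.5, pull the Control value down and widen its gap to the other libraries. Lcn2 lay nearest to that mean, with a root-mean-square difference of 0.37 on the log2 scale, followed by S100a8 (0.40), S100a9 (0.50), Retnlg (0.51) and Mmp8 (0.54). Ngp (1.28) and Ltf (1.40) were far from it. Of the tested genes outside all lists, Bfsp2, Btbd35f4, Abca13, Apod and Gm15352 had the nearest profiles, at 0.17 to 0.27. Apod, apolipoprotein D, was the only one of these with high counts, at 1022 in Control and 1775 in Dox, 1718 and 4081 under Rh2-20 mg/kg without and with Dox, and 2019 and 2813 under Rh2-30 mg/kg, and the other 4 stayed at or under 132. With 6 libraries and 18328 genes, such likeness is a description and says nothing of shared cells or control.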

How the data were processed

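Hearts of 6 groups of mice were sequenced as 1 pooled library a group. Per the labels and the study's methods, the SureSelect XT RNA Direct kit, which selects transcripts with probes, was used, and reads were trimmed with Trimmomatic and aligned to mm10 with HISAT2 2.1.0. The authors deposited 1 table of 45777 genes with whole-number counts, FPKM and TPM values per library from StringTie 2.1.3b (versions from the submitters' processing notes). The strand setting of the counting and the probes behind each gene are not given in the sources used here. The authors' FPKM and TPM values were scaled for length and library, and FPKM served for levels between genes, while TPM served only to see which library was highest.

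Counts were scaled with TMM (factors 0.959 to 1.08). Genes averaging 10 or more counts (18328 of the 26776 with any count) were tested with edgeR 4.0.16 (glmQLFit and glmQLFTest, two-sided, Benjamini-Hochberg adjustment) in R 4.3.3: Dox as 3 libraries against 3, and Rh2 dose with Dox as a term. Folds of 2 libraries used a prior count of 0.5, exact binomial intervals of 95%, and a wider interval with the common dispersion (0.0865; 0.0285 by the robust estimate). A fold of 2 counted as higher or lower, and a count of 0 was taken as up to 3 counts. Bounds from such a 0, also those in the figures, leave out the counting error of the other library. Tables and figures were made with Python 3.11.15. Totals of 86164411 to 90621002 counts per library set the counting error, which covers reads and not mice. The study's methods name edgeR with the 6 libraries as replicates but not the groups of the fit; here libraries of 1 condition each were taken as replicates of a drug or dose, so p-values measure the spread between libraries of unlike conditions. The test was tried on simulated data with known changes before use. These had a lower dispersion than the common dispersion given above and changes only in genes with high counts. How the test performs at that common dispersion or at low counts was not tried.

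The members and gene lists were chosen with earlier results of these data known. Named by rule were the 10 members, of each other list at most the 4 genes with the highest mean counts and its defining markers, and the 5 unlisted genes nearest to the members' mean profile. Pglyrp1, Trem1, Mrgpra2a, Mrgpra2b, Padi4, Clec4e, Ifitm6 and the genes named at 0 counts were named after their values were seen. Alternatives were DESeq2 1.42.0 (Wald test and size factors), no filter or an average of 50 counts, a prior count of 2, total-count scaling, FPKM with a pseudocount of 1 or 0.1, Rh2 dose as a term, leaving out each library and, added after seeing the data, robust dispersion. Protein sequences were not used here. One listed granule gene is counted in its list but is not reported here by itself. Promoters matched for 10 of 10 members by symbol.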

Additional observations from a re-analysis of the deposited data

Results flagged for a closer look

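Ltf was the only tested member whose changes had opposite signs between settings of the same drug, each with a 95% counting interval on its own side of 0. Adding Dox went with a log2 fold of 1.93 at Rh2-20 mg/kg (19 to 75 counts) and of -3.46 at Rh2-30 mg/kg (270 to 22 counts). In the same way, Rh2-30 mg/kg went with a log2 fold of 2.48 without Dox (42 to 270 counts) and of -1.48 with Dox (60 to 22 counts). Each of the 4 values rests on 1 library a side, and the difference between the settings was not tested. The values at Rh2-30 mg/kg share 1 library, in which the B cell, epithelial and acute phase lists were also highest.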

How the results depend on the processing

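The number of genes called for Dox, 5 by edgeR's quasi-likelihood test, became 425 with DESeq2's Wald test, 0 with Rh2 dose as a term, and 0 to 14 when each library was left out in turn. For Rh2-30 mg/kg, 0 became 91 with the Wald test and 0 to 1488 without a library (1481 without Rh2-30 mg/kg, 1488 without Rh2-30 mg/kg + Dox), with 0 to 1 members, the 1 being Ltf without Rh2-30 mg/kg + Dox. At the lower dose, 0 became 24 with the Wald test and 0 to 43 without a library, with 1 and 0 to 1 members, in each case S100a9, called without Rh2-30 mg/kg or without Rh2-30 mg/kg + Dox.

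Of the members' fitted log2 folds under the alternatives, 193 kept direction and side of the threshold, 4 passed it and 9 changed sign, all of these when a library was left out. For Dox these were S100a8 (range -0.31 to 1.06) and S100a9 (-0.28 to 0.94), each below 0 without the library of Rh2-20 mg/kg + Dox, and Ltf (-1.48 to 0.75), above 0 without Rh2-30 mg/kg. The Rh2-30 mg/kg values were S100a8 (-0.25 to 0.68), Ltf (-1.83 to 2.83) and Retnlg (-0.53 to 0.51), which all turned without Rh2-30 mg/kg (Retnlg 0.22) and, for Retnlg, also without Control. The lower dose gave Ltf (-2.53 to 0.89), which turned without that dose alone and without Dox (0.68). The cause was not tested.

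The counts of members at least 2-fold higher, here over all 7 tested members with Mmp8 and Ngp included, fell with FPKM plus 1, a pseudocount larger than most members' FPKM: against Control, from 4 to 1 in Rh2-20 mg/kg, from 2 to 0 at the higher dose alone, from 1 to 0 in Dox and from 4 to 0 in Rh2-30 mg/kg + Dox. They fell from 3 to 0 in the last library against Dox, from 6 to 2 and 3 to 0 for the combinations against Rh2 of the same dose, and from 4 to 1 between the combinations. With FPKM plus 0.1 they were 1 for the higher dose alone and 2 for Rh2-30 mg/kg + Dox, against Control, and 2 between the combinations, where a prior count of 2 also gave 2. Requiring an interval with the common dispersion above 0 left 1 in Rh2-30 mg/kg + Dox against Dox and 2 between the combinations. Of the single folds, 298 stayed within their counting interval and 52 moved out of it (38 with FPKM plus 1, 14 with FPKM plus 0.1). Of those at least 2-fold in either direction, 0 changed sign, and sign changes of smaller folds were not counted.

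The labels carry no replicate numbers. Rh2 dose as a term pairs the libraries by dose, and with it 0 genes were called for Dox. Members with counts near 3 (Camp, Mpo, Elane) are limited by depth.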
